A study of Rattus norvegicus with 18 samples.

Results

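Kidneys of stroke-prone spontaneously hypertensive rats (strain SHRSP/Izm) were set against kidneys of spontaneously hypertensive rats (strain SHR/Izm), both at 3 weeks of age. The sample labels chose the members, 3 SHRSP arrays and 3 SHR arrays out of the 18 arrays of the series. The other 12 arrays carried the normotensive strain WKY/Izm at 3 weeks and all 3 strains at 6 weeks, again with 3 biological replicates per group. No animal was treated and the sex was not stated. Purchase and sampling of the 3-week group were only days apart. Total RNA was labelled with Cy3 and hybridised to one-colour 4x44K whole rat genome arrays from Agilent. Each array carried 42877 spots other than controls, from 30367 different probes, and 30359 probes could be fitted.

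After spots near background were set aside, the 75th percentile of the signal was 2899, 2931 and 2624 intensity units on the 3 SHR arrays and 2690, 1857 and 3013 on the 3 SHRSP arrays. SHRSP replicate 2 was therefore the dimmest of the 6. Of all spots, 70.8%, 71.5% and 75% were well above background on the SHR arrays and 73.1%, 76.9% and 74.8% on the SHRSP arrays. All signals below are log2 values after division by the array's own 75th percentile, so that 0 is the brightness of that percentile, and every difference is SHRSP minus SHR. Values for several arrays are listed in the order of replicates 1, 2 and 3. A probe entered the test if either group had it clearly above background in each of its 3 kidneys, and it passed when its Benjamini-Hochberg adjusted p was under 0.05. The p-values rest on a spread for each probe pooled over all 6 groups of the series, not on SHRSP and SHR at 3 weeks alone. With the spread of only the 6 arrays compared, 131 probes passed at any fold in place of 2453. Each group had only 3 arrays, so each value carries a wide error.

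SHRSP were bred from SHR for severe hypertension and early stroke, and WKY rats are the usual normotensive control of both strains. Transplantation experiments in rats have placed part of the inherited rise in pressure in the kidney, which sets the balance of salt and water and hosts much of the renin-angiotensin system. In that system angiotensinogen is cut in steps, the last by the angiotensin-converting enzyme, to angiotensin II, which acts through its receptors on vessels and tubules. At weaning the rat kidney is still growing, with dividing cells in its tubules and vessels, and pressure in these strains has not yet reached its adult level.

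The labels were first compared with the other age, since the same strains were measured again at 6 weeks on different arrays. Of the 225 probes past 2-fold at 3 weeks, 205 were also tested at 6 weeks. A total of 116 of them (56.6%) passed the test there in the opposite direction, 7 (3.41%) passed in the same direction, and 82 did not pass. Of the 55 probes past 4-fold, 51 were tested at 6 weeks, where 39 (76.5%) were opposite, 0 had the same direction and 12 did not pass. Among all 2453 probes past the test at any fold, 2383 were tested at 6 weeks, with 340 opposite (14.3%) and 35 in the same direction (1.47%). The sizes of the crossed differences were alike, as the median ratio of the size at 3 weeks to the size at 6 weeks was 0.96 among the crossed 2-fold probes. For 137 of the 205 probes (66.8%), pairing each strain label at 3 weeks with the other strain label at 6 weeks brought the group means closer than pairing equal labels. The same was so for 42 of 51 probes past 4-fold (82.4%) but for 1042 of 2383 at any fold (43.7%), where most were closer with equal labels. A direct test of the change of the difference from 3 to 6 weeks called 518 of 20289 probes past 2-fold (2.55%). The cause of this crossing was not tested, and an exchange of the labels at 1 age and a reversal with age cannot be told apart from these values. The direction of every difference below rests on the labels as deposited, and "SHRSP" and "SHR" stand for the arrays labelled so at 3 weeks.

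**Figure D1:**
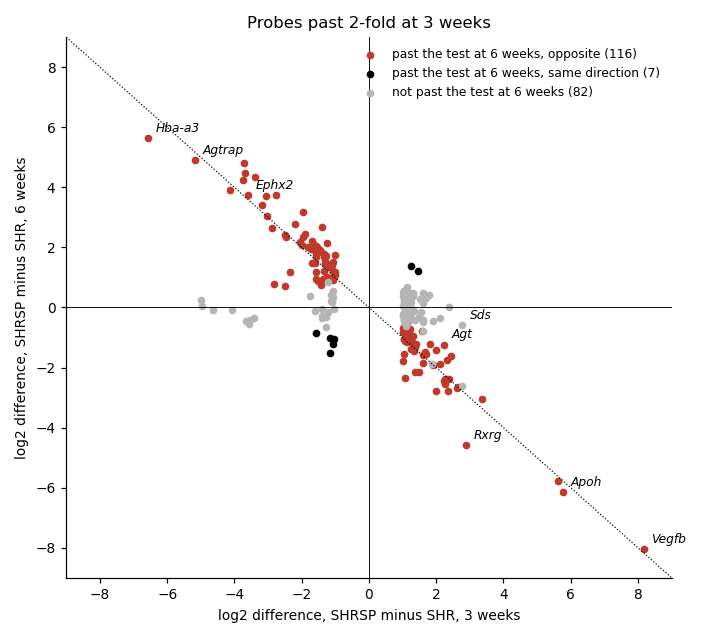
Each point is a probe past 2-fold at 3 weeks that was also tested at 6 weeks, with the log2 difference SHRSP minus SHR at 3 weeks on the horizontal axis and at 6 weeks on the vertical axis. The dotted line marks equal size and opposite sign; 116 points in colour passed the test at 6 weeks in the opposite direction, 7 black points in the same direction, and 82 grey points did not pass.

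Correlation between arrays across genes separated the labels of the other age only weakly, with the reservation that genes are not independent replicates. Within the SHR group at 3 weeks r was 0.9947 to 0.9964, and within the SHRSP group it was 0.9921 to 0.9943. Between the groups it was 0.9849 to 0.9936. The median r of SHR arrays at 3 weeks was 0.9866 (0.986 to 0.99) with the SHRSP arrays at 6 weeks and 0.9857 (0.9838 to 0.988) with the SHR arrays at 6 weeks. For the SHRSP arrays at 3 weeks the median was 0.9784 (0.9766 to 0.9857) with SHRSP and 0.9823 (0.9776 to 0.9895) with SHR at 6 weeks. The ranges overlapped for both groups.

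The tissue label was checked against kidney cell markers, and the defining genes of each nephron segment were present on all 6 arrays. The proximal tubule list was led by Slc34a1, the phosphate carrier of the brush border, whose signal was 5.70, 5.83 and 5.91 in SHR and 5.86, 6.17 and 5.99 in SHRSP. Umod, which encodes the uromodulin of the thick ascending limb, stood at 6.70, 6.64 and 6.76 in SHR and 6.75, 7.09 and 6.78 in SHRSP. The water channel gene Aqp2 of collecting duct principal cells stood at 5.34, 5.01 and 5.33 in SHR and 5.19, 5.55 and 4.86 in SHRSP. The groups overlapped for Slc34a1, Umod and Aqp2. All 6 podocyte markers and all 6 endothelial markers could be tested as well. Of the 4 markers of the distal convoluted tubule, Pvalb alone was above background on 0 of the 6 arrays.

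Between SHRSP and SHR at 3 weeks 19937 probes were tested, and 2453 (12.3%) passed at any fold. Of these, 1700 (8.53% of the probes tested) were higher in SHRSP and 753 (3.78%) were lower. At 6 weeks 697 of 19667 probes passed at any fold (3.54%). Past 2-fold there were 225 probes (1.13%), 129 higher and 96 lower, and past 4-fold there were 55 (0.276%). A further 632 probes (3.17%) were moderate, that is between 1.5-fold and 2-fold, with 497 higher and 135 lower, and 1596 passed below 1.5-fold. Of the 225 probes past 2-fold, 143 were well above background on all 6 arrays, 28 were not so on any SHR array and 17 not on any SHRSP array. The 225 comprised 141 probes mapped to 133 gene symbols and 84 without a symbol.

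The surplus of higher probes depended on the scaling. The median difference of all probes tested was 0.10 on the log2 scale here, and fell to 0.00 with a 75th percentile over all probes, 0.02 over the probes well above background on all 18 arrays, and 0.01 with quantile normalization. Under these settings 1497, 1478 and 1663 probes were higher and 1931, 1941 and 2041 were lower at any fold, so the larger share changed sides. Past 2-fold the split went from 129 higher and 96 lower to 92 and 112, 99 and 108, and 89 and 120, in the same order. Small differences at any fold are therefore read below against the median of all probes, and large ones carry the description.

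Slide and scan day were partly tied to the strain. SHR replicate 1 shared a slide with WKY arrays, SHR replicates 2 and 3 shared a slide with SHRSP replicates 1 and 2, and SHRSP replicate 3 lay on a slide scanned on another day. Within the slide that held both groups, 644 probes passed at any fold, 184 past 2-fold (83 higher and 101 lower) and 58 past 4-fold. With slide as a block in the fit the counts were 477, 162 (71 higher and 91 lower) and 49. Past 2-fold the larger share thus changed sides here too. Without SHRSP replicate 1 the counts at any fold and past 2-fold were 7083 and 514. At any fold the count was 998 without SHRSP replicate 2, 1098 without SHRSP replicate 3, 1057 without SHR replicate 1 and 1553 without SHR replicate 2.

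Some genes had a probe signal that was not above background in 1 of the groups. Whether strain variants under these probes contributed was not tested. Vegfb encodes vascular endothelial growth factor B, a ligand of the receptor Flt1 that is made in muscle, heart and kidney and acts on vessels and fatty acid uptake. Its probe on chromosome 1 (rn4, 209657830 to 209657889) read -8.51, -8.57 and -8.98 in SHR and -0.48, -0.62 and -0.45 in SHRSP. None of the SHR arrays was above background, all SHRSP arrays were bright, and the groups lay far apart. A fold against such a dim group is only a bound, computed after the dim signals had been lifted to the faintest signal that still counted as above background on their array, and is written as at least so many fold. Here and below such a bound concerns the signal of the probe and is not a bound on the amount of transcript. Vegfb was at least 81.1-fold higher in SHRSP (fitted difference 8.18 ± 0.136 SE, adjusted p = 6.56e-14). The WKY arrays of the same age averaged -0.24, next to SHRSP. At 6 weeks the SHR arrays averaged -0.49 and the SHRSP arrays -8.54. The gene's receptor Flt1 differed far less, by 0.37 (adjusted p = 0.0318).

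Apoh encodes beta-2-glycoprotein I, a plasma protein that binds anionic phospholipids and takes part in coagulation. Its signal was -8.50, -8.99 and -7.32 in SHR and -2.48, -2.67 and -2.36 in SHRSP. Again no SHR array was above background and the groups were far apart. The signal of the Apoh probe was at least 20.4-fold higher in SHRSP (adjusted p = 1.97e-06), and the WKY mean was -2.28, beside the SHRSP arrays. At 6 weeks the means were -2.17 in SHR and -8.30 in SHRSP. The probe lies on the plus strand of chromosome 10 in the rn4 assembly (chr10:97732840-97732899). Its 60 bases, all in lower case since no part of them was singled out, are shown because the values above were read with this probe.
Apoh: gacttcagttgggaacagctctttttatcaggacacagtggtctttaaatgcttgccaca

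**Figure D2:**
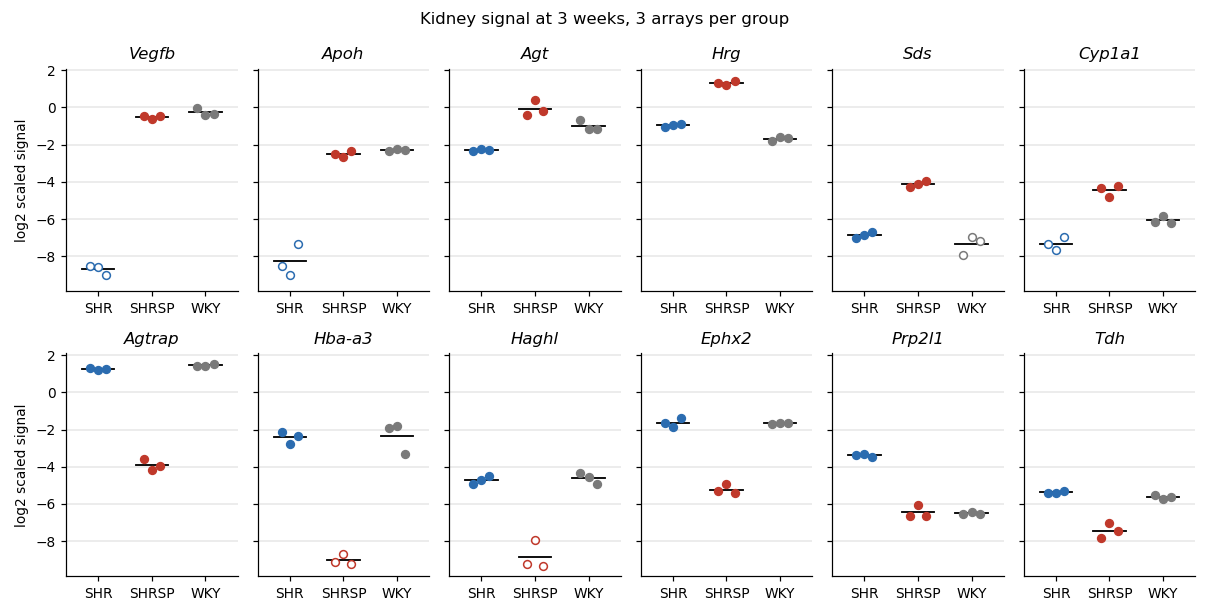
The log2 scaled signal of 12 genes is plotted on the vertical axis for each array at 3 weeks, in the groups SHR, SHRSP and WKY, with a line at each group's mean; open circles mark groups in which no array was well above background. In the upper row the 3 SHRSP arrays lie above the 3 SHR arrays, and in the lower row they lie below them.

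Agtrap showed the largest difference among genes that were above background on all 6 arrays. Its product binds the angiotensin II type 1 receptor, promotes its internalisation and dampens its signalling in renal tubules. The signal was 1.28, 1.22 and 1.24 in SHR and -3.59, -4.17 and -3.97 in SHRSP. The SHR arrays were almost identical and stood far above every SHRSP array. The difference was -5.16 ± 0.124 SE, or 35.8-fold lower in SHRSP (adjusted p = 5.6e-12), and within the shared slide it was -5.11. WKY kidneys averaged 1.45, close to SHR.

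Agt encodes angiotensinogen, the precursor of all angiotensins, which proximal tubule cells make beside the liver. Its signal was -2.35, -2.26 and -2.29 in SHR and -0.41, 0.38 and -0.19 in SHRSP. Every SHRSP array was brighter than every SHR array, with a wider spread in SHRSP. The difference was 2.23 ± 0.188 SE (4.68-fold higher, adjusted p = 3.34e-06), and WKY lay between the strains at a mean of -0.99. Unlike Agtrap, Agt had a higher mean at 6 weeks than at 3 weeks under both strain labels. The means were 1.67 against -2.30 in SHR and 0.44 against -0.07 in SHRSP, and the change within a strain was not tested.

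Ace, which encodes the angiotensin-converting enzyme of vessels and of the proximal brush border, was lower in SHRSP by both of its probes. The brighter probe read -2.36, -2.06 and -2.0 in SHR and -3.47, -2.83 and -3.12 in SHRSP, and the dimmer one -5.11, -4.67 and -4.24 in SHR and -6.76, -6.03 and -6.42 in SHRSP. Neither probe overlapped between the groups. The differences were -1.0 (adjusted p = 3.24e-04) and -1.73 (adjusted p = 1.50e-04). Within the list for the renin-angiotensin-aldosterone system, 18 of 20 genes were on the array and 15 were tested. Only Agt passed upwards and only Agtrap and Ace passed downwards, while 12 members, the receptor genes Agtr1a and Agtr1b among them, did not pass. Over all probes tested 8.53% were higher, 3.78% were lower and the median was 0.10, beside a median of 0.00 for the list.

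Ephx2 encodes soluble epoxide hydrolase, which turns vasodilating epoxides of arachidonic acid into diols. Its signal was -1.65, -1.89 and -1.37 in SHR and -5.32, -4.93 and -5.44 in SHRSP. The SHR arrays matched the WKY mean of -1.66, and all SHRSP arrays lay below both. The difference was -3.59 ± 0.15 SE (12.1-fold lower, adjusted p = 2.91e-09). At 6 weeks the means were -5.32 in SHR and -1.57 in SHRSP. The probe spans an intron on the minus strand of chromosome 15 (rn4, chr15:45535737-45538220), so it reads the spliced transcript, and is printed here in lower case for that reason.
Ephx2: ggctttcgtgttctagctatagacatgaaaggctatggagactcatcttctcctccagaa

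Other enzymes of arachidonic acid metabolism differed less than Ephx2. Of the 30 tested members of that list, 5 were higher and 3, with Ephx2, were lower, beside 8.53% higher and 3.78% lower over all probes, and the median was 0.09. Cyp2c11, a male-biased epoxygenase, read -5.94, -5.54 and -6.37 in SHR and -4.89, -4.53 and -3.61 in SHRSP (difference 1.61, adjusted p = 0.0342), but it did not pass within the shared slide (adjusted p = 0.195). The epoxygenase gene Cyp2j4 was higher by 0.60 (adjusted p = 0.00114) and the omega-hydroxylase gene Cyp4a8 by 0.50 (adjusted p = 0.0102). Cyp4a8 did not pass within the slide either (adjusted p = 0.0854).

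Several plasma proteins of coagulation and the kinin system differed. Hrg encodes histidine-rich glycoprotein, which binds heparin, plasminogen and divalent metals. Its brighter probe read -1.07, -0.92 and -0.89 in SHR and 1.33, 1.21 and 1.40 in SHRSP, and its dimmer one -4.39, -4.25 and -3.99 in SHR and -1.83, -2.13 and -1.83 in SHRSP. Both probes kept the groups fully apart and gave the same difference of 2.28 (4.84-fold and 4.86-fold higher, adjusted p = 2.66e-08 and 1.81e-07). WKY lay below both hypertensive strains, at means of -1.69 and -4.98.

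Probes past 2-fold beside Hrg on chromosome 11 had both directions. A probe without a gene name at 80307630 was lower, with no SHRSP array above background (fitted difference -3.69, adjusted p = 3.01e-10), and Kng2l1 and Fetub were higher. Kng2l1, a kininogen gene whose probe the array names Kng2, read -8.79, -8.88 and -9.27 in SHR, where no array was above background, and -6.70, -6.68 and -6.86 in SHRSP. It was at least 1.08-fold higher (fitted difference 2.23, adjusted p = 9.62e-04), a bound that shows how faint both groups were. Fetub, a protease inhibitor of the fetuin family, was higher by 1.04 (adjusted p = 0.0176), but did not pass within the shared slide (adjusted p = 0.0918). Kng2l1 and Fetub were chosen after their values were seen. The probe mapped to Kng2 itself read -4.09, -4.30 and -4.12 in SHR and -4.44, -4.69 and -4.46 in SHRSP, and its difference of -0.36 did not pass (adjusted p = 0.167).

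F2, which encodes prothrombin, was higher in SHRSP, with -2.37, -2.19 and -2.12 in SHR and -1.02, -0.92 and -0.71 in SHRSP (difference 1.34, adjusted p = 1.55e-04). Fibrinogen went the other way. Fgb, the beta chain, read -2.12, -2.08 and -1.89 in SHR and -3.06, -3.15 and -3.16 in SHRSP, a difference of -1.09 (adjusted p = 8.75e-05). The alpha chain gene Fga was lower by a smaller amount (difference -0.37, adjusted p = 0.0309), and so was F5, coagulation factor V (difference -0.83, adjusted p = 3.10e-04). In the whole list of kinins, coagulation and fibrinolysis 29 genes were tested, of which 7 were higher and 4 were lower, with a median of 0.09. Over all probes 8.53% were higher and 3.78% lower. Within the shared slide 3 were higher and 2 lower, beside 324 and 320 of all 20194 probes.

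Sds encodes serine dehydratase, an enzyme of gluconeogenesis from serine that is induced by glucagon, glucocorticoids and fasting. Its signal was -7.00, -6.88 and -6.71 in SHR and -4.26, -4.09 and -3.95 in SHRSP. The groups did not overlap, and only 1 SHR array was above background, so no fold is given. The difference was 2.76 ± 0.190 SE (adjusted p = 3.81e-07). Sds did not cross at 6 weeks. There it averaged -3.49 in SHR and -4.06 in SHRSP, and the change of the difference with age passed the test (adjusted p = 1.22e-06). The probe (rn4, chr12:37281886-37281945, minus strand) is printed in lower case because Sds is a strongly raised gene that did not follow the crossing pattern.
Sds: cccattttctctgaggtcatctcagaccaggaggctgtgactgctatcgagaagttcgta

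Other enzymes of amino acid breakdown and gluconeogenesis were higher too. Pck1, which encodes the cytosolic phosphoenolpyruvate carboxykinase of the proximal tubule, read 1.72, 1.81 and 1.5 in SHR and 3.01, 2.70 and 2.86 in SHRSP. Its groups were clearly separate (difference 1.18 ± 0.149 SE, adjusted p = 1.97e-04), and within the slide the difference was 1.2 (adjusted p = 0.00539). G6pc1, the glucose-6-phosphatase gene that releases free glucose, was higher by 0.62 (adjusted p = 0.00988), and the ornithine aminotransferase gene Oat by 0.57 (adjusted p = 4.48e-04). Prodh, proline dehydrogenase, was higher by 0.79 (adjusted p = 0.00345), but not past the test within the slide (adjusted p = 0.0613). Of the 30 tested members of the list, 9 were higher and 2 lower, against 8.53% and 3.78% of all probes, while the median of 0.10 was equal to that of all probes. Within the shared slide 4 were higher and 2 were lower, beside 324 and 320 of all 20194 probes.

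Tdh, the threonine dehydrogenase gene, was one of the lower members, with -5.40, -5.43 and -5.29 in SHR and -7.84, -7.00 and -7.46 in SHRSP. Its difference was -2.06 (adjusted p = 1.97e-06). A single SHRSP array was above background, and all SHRSP values lay under the SHR values.

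Genes known to answer to fasting or glucocorticoids had both directions, and no fixed list of them was tested. Angptl4, a secreted inhibitor of lipoprotein lipase, came under the naming rule itself and read -1.68, -1.61 and -1.47 in SHR and 0.53, 0.23 and 0.18 in SHRSP (difference 1.90 ± 0.253 SE, adjusted p = 3.24e-04). Of those chosen after their values were seen, Pdk4, which restrains pyruvate oxidation, was higher by 1.16 (adjusted p = 0.00489). Fkbp5, a chaperone of the glucocorticoid receptor, read -0.03, 0.65 and 0.87 in SHR and 1.24, 1.61 and 2.02 in SHRSP (difference 1.13, adjusted p = 0.0102), and within the slide it did not pass (adjusted p = 0.114). Cyp27b1, which makes active vitamin D in the kidney, was separate between the groups at -3.60, -3.39 and -3.33 in SHR and -1.70, -2.26 and -1.68 in SHRSP (difference 1.56, adjusted p = 2.02e-05). Among genes that glucocorticoids induce, Ddit4, also chosen after its value was seen, was lower (difference -1.07, adjusted p = 0.0395), as were Sgk1 and Dusp1 (differences -0.82 and -0.83). Angptl4, Pdk4 and Cyp27b1 passed within the shared slide as well (adjusted p = 0.00739, 0.038 and 0.00131), but with slide as a block Pdk4 did not (adjusted p = 0.0585).

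Zbtb16, a transcriptional repressor induced by glucocorticoids, read -5.17, -5.27 and -4.35 in SHR and -3.32, -2.64 and -2.84 in SHRSP. The groups were separate but uneven, and the difference of 2.0 ± 0.513 SE passed (adjusted p = 0.0255). It did not pass within the slide (adjusted p = 0.152). Zbtb16 crossed at 6 weeks, where the difference was -2.77.

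Cyp1a1 encodes the cytochrome that the aryl hydrocarbon receptor induces in response to aromatic hydrocarbons. No SHR array was above background, at -7.34, -7.67 and -6.97, while SHRSP read -4.35, -4.82 and -4.22. The Cyp1a1 signal was at least 5.05-fold higher in SHRSP (fitted difference 2.86, adjusted p = 0.00374). Its evidence was weaker than the size implies, since the adjusted p was 0.0565 with slide as a block and 0.0517 within the slide. None of the other 6 tested members of the receptor's list passed, and the list's median was -0.03. The change of the Cyp1a1 difference to 6 weeks, where it was 0.76, did not pass (adjusted p = 0.0915).

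Rxrg, the gamma subtype of the retinoid X receptor, led the genes that were higher in SHRSP and above background on every array. It read -4.66, -4.52 and -5.21 in SHR and -1.91, -1.77 and -2.02 in SHRSP, a difference of 2.90 ± 0.151 SE (7.45-fold, adjusted p = 2.47e-08). At 6 weeks its difference was -4.58, larger than at 3 weeks and opposite. The zinc finger gene Zfp597 was higher by 2.63 (adjusted p = 1.56e-08) and Serhl2, a serine hydrolase-like gene, by 2.34 (adjusted p = 5.76e-09). Mettl2, a tRNA methyltransferase gene, was higher by 2.11 (adjusted p = 1.33e-07). Abcb10, a mitochondrial transporter needed for haem synthesis, was higher by 2.0 (adjusted p = 4.86e-08), and Pxmp4, a peroxisomal membrane protein gene, by 1.71 (adjusted p = 2.78e-07). Zfp597, Serhl2, Mettl2, Abcb10 and Pxmp4 crossed at 6 weeks with differences of -2.65, -2.77, -1.89, -1.42 and -1.55, in the same order.

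The rest of the 12 named for the largest increases were Ptprq, C1h11orf86 and Cftr, with differences of 1.69, 1.61 and 1.61 (adjusted p = 0.0113, 0.00112 and 0.00437). Cftr, a chloride channel gene, had the widest spread of these, with -3.64, -2.55 and -3.91 in SHR and -2.30, -1.40 and -1.56 in SHRSP. Ptprq and Cftr did not pass within the slide (adjusted p = 0.0677 and 0.0752), and their differences at 6 weeks, 0.30 and 0.15, did not pass either. Another 3 faint genes without an SHR array above background completed the upward side. Rgs11, a regulator of G protein signalling, was at least 3.30-fold higher (adjusted p = 2.78e-05), the chemokine gene Cxcl17 at least 2.95-fold (adjusted p = 0.0335) and the centrosome gene Sfi1 at least 1.99-fold (adjusted p = 0.00638). Cxcl17 did not pass within the slide (adjusted p = 0.118). Sfi1 also has a bright probe whose difference of 0.19 did not pass (adjusted p = 0.157).

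Hba-a3, an alpha globin gene, was not above background in SHRSP. Its signal was -2.12, -2.77 and -2.35 in SHR and -9.09, -8.66 and -9.22 in SHRSP. The groups lay far apart, and the signal was at least 25.2-fold lower in SHRSP (adjusted p = 5.05e-08). Hba-a1, the most abundant red cell gene on the list, read 6.31, 5.88 and 6.00 in SHR and 5.92, 6.45 and 5.55 in SHRSP, which overlapped. All 6 tested red cell markers had differences below 0, with a median of -0.26, and 0 of them passed in limma. The part of blood content in the Hba-a3 difference was not tested.

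Haghl, a gene like the glyoxalase hydroxyacylglutathione hydrolase, read -4.92, -4.72 and -4.50 in SHR and -9.22, -7.94 and -9.33 in SHRSP. No SHRSP array was above background, and the bound was at least 5.11-fold lower (adjusted p = 1.97e-06). Micb, whose probe the array names Mill2, was at least 2.85-fold lower (adjusted p = 2.67e-04) and Sytl3, a synaptotagmin-like gene of vesicle traffic, at least 2.49-fold (adjusted p = 8.06e-04). Prp2l1 read -3.39, -3.31 and -3.49 in SHR and -6.62, -6.06 and -6.66 in SHRSP (difference -3.05, adjusted p = 7.12e-09), and WKY kidneys, at -6.49, were like SHRSP. Hba-a3, Haghl, Micb and Prp2l1 crossed at 6 weeks, with differences of 5.65, 3.91, 2.33 and 3.70. Sytl3 kept its sign there but did not pass (difference -0.34).

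Among the lower genes above background on every array, Bpi, which encodes a bactericidal protein that binds endotoxin, read -2.98, -3.06 and -2.88 in SHR and -4.43, -4.97 and -4.59 in SHRSP (difference -1.69, adjusted p = 4.38e-06). Lbp, its neighbour on chromosome 3 and the gene of the endotoxin-binding protein of plasma, was chosen after its values were seen. It went up, from -6.51, -6.39 and -6.36 in SHR to -4.77, -4.34 and -4.45 in SHRSP (difference 1.90, adjusted p = 6.08e-05). Only 1 SHR array was above background for Lbp, so the size of its difference is uncertain. The related genes Bpi and Lbp thus had opposite directions, and both crossed at 6 weeks, to 1.5 and -1.93. Apcs, serum amyloid P component, read 0.26, 0.18 and 0.22 in SHR and -1.0, -1.82 and -1.34 in SHRSP (difference -1.61, adjusted p = 8.44e-05). Its difference at 6 weeks was -0.13, and the change with age passed (adjusted p = 0.00257).

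The remaining lower genes of this kind were Asb9, Pmfbp1, MGC116197, Tnfrsf9 and Haus4, with differences of -1.58, -1.57, -1.56, -1.51 and -1.43 and adjusted p from 7.12e-07 (MGC116197) to 6.83e-06 (Asb9). Tnfrsf9 is a costimulatory receptor of T cells, and Haus4 is a subunit of the augmin complex of the spindle. Each of the 5 crossed at 6 weeks, where the differences were 0.96, 1.67, 1.79, 0.87 and 0.74.

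A family of genes on chromosome 15 differed strongly at 3 weeks and not at 6 weeks. The Spetex-2 genes are a rat multigene family first described in the testis. The probe for Spetex2f read -2.28, -1.60 and -2.33 in SHR and -5.98, -5.07 and -5.77 in SHRSP, the probe for Spetex-2A read -1.83, -1.31 and -1.92 in SHR and -5.82, -4.67 and -5.56 in SHRSP, and the probe for Spetex2g read -4.71, -4.17 and -4.67 in SHR and -8.64, -7.04 and -8.58 in SHRSP. Replicate 2 was the brightest in each group by all 3 probes, and none overlapped between groups. The differences were -3.54 (adjusted p = 5.83e-07), -3.66 (adjusted p = 7.32e-07) and, for Spetex2g, at least 5.64-fold lower (adjusted p = 1.06e-05). At 6 weeks they were -0.41, -0.46 and -0.54. The change with age passed for Spetex2f (adjusted p = 4.88e-05) and Spetex2g (adjusted p = 9.48e-04). Since the members of the family are similar in sequence, the 3 probes may read the same transcripts, and that was not tested. Spetex-2A was chosen after its values were seen.

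The circadian clock is a loop in which Bmal1 with Clock or Npas2 drives Per, Cry, Nr1d and the genes of the PAR bZIP factors Dbp, Tef and Hlf, whose products feed back on Bmal1. In the kidney it follows feeding and light and sets the daily course of sodium transport. Npas2 read -2.35, -2.30 and -2.42 in SHR and -4.24, -3.51 and -4.07 in SHRSP, a difference of -1.58 ± 0.154 SE (adjusted p = 1.51e-05). Its second probe showed no such difference (0.19, adjusted p = 0.405). Bmal1 was also lower, with -1.24, -1.61 and -1.59 in SHR and -2.44, -2.24 and -2.88 in SHRSP (difference -1.04, adjusted p = 0.00109), and its second probe gave -1.15 (adjusted p = 3.24e-04). Clock did not pass and had a difference of 0.45 (adjusted p = 0.147).

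Some genes of the repressive arm and of the output were higher. Per2 read -3.04, -3.12 and -3.09 in SHR and -2.03, -1.74 and -1.75 in SHRSP (difference 1.24 ± 0.120 SE, adjusted p = 1.41e-05). Dbp read 1.45, 1.56 and 1.77 in SHR and 2.42, 2.51 and 2.5 in SHRSP (difference 0.88, adjusted p = 0.00281, or 0.0582 with slide as a block), and both of its other probes gave nearly the same value, 0.90 and 0.89. Nr1d2, which represses Bmal1, was higher by 0.86 (adjusted p = 0.0145), Cry2 by 0.61 (adjusted p = 0.00521) and Hlf by 0.55 (adjusted p = 0.0155).

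Of the 22 clock genes listed, 21 were on the array and 19 were tested. A total of 9 were higher and 2 were lower, against 8.53% and 3.78% of all probes, and 15 had differences above 0, as had 12870 of the 19937 probes tested. The list's median was 0.47, beside 0.10 over all probes. The median of the members' deviations from their own means was -0.33, -0.23 and -0.12 on the SHR arrays and 0.03, 0.36 and 0.30 on the SHRSP arrays, so every SHRSP array was above every SHR array. Within the shared slide 3 were higher and 2 were lower, with a median of 0.39, and with slide as a block 2 and 2. Over all probes 324 were higher and 320 lower of 20194 within the slide. With the block 224 were higher and 253 lower of 19937. Without SHRSP replicate 3 there were 5 higher, beside 747 of 20094 probes, and without SHR replicate 1 there were 6, beside 558 of 20054. At 6 weeks Dbp, Bmal1 and Npas2 passed in the direction they had at 3 weeks (differences 1.28, -1.06 and -0.84). The list's median there was 0.02, and 1 member was higher and 3 were lower, beside 301 and 396 of all 19667 probes. The hour at which each kidney was taken was not on the labels, so its part in these differences was not tested.

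Promoters of clock genes were searched for the letters that clock factors bind. In the RefSeq promoters of the GRCr8 assembly, the 250 bases before the start were read on both strands. The E-box CACGTG, bound by Bmal1 with its partners, was in 5.59% of all 33469 promoters, the ROR core AGGTCA, bound by Nr1d and Ror factors, in 14.1%, and the D-box TTANGTAA, bound by Dbp, Tef and Hlf, in 2.04%. Of the 21 clock genes on the array 17 had a promoter in the table. Among these 5 had an E-box (Bhlhe40, Bhlhe41, Ciart, Nr1d1 and Tef), 2 had the ROR core (Bmal1 and Nr1d2) and 1 had a D-box (Per2). Fragments are printed to show where the letters lie in listed genes, of which Nr1d1 and Tef did not pass the test, with the motif in capitals. They lie at chr1:176766283-176766327 on the plus strand for Bmal1, chr9:99497148-99497215 on the minus strand for Per2, chr10:84229610-84229675 on the minus strand for Nr1d1, chr7:115206599-115206664 on the plus strand for Tef and chr4:143174200-143174265 on the plus strand for Bhlhe40.
Bmal1: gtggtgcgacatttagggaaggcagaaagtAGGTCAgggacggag
Per2: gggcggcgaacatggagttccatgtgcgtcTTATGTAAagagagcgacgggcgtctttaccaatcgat
Nr1d1: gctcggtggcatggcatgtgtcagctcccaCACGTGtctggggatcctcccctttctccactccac
Tef: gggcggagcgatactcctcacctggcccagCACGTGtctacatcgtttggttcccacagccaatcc
Bhlhe40: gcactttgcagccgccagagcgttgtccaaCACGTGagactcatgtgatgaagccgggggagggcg

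A match describes letters in a window and is not evidence of binding. Bmal1, with the ROR core in its fragment, was lower in SHRSP. Per2, with the D-box in its own, was higher, as were Bhlhe40 by 0.47 (adjusted p = 0.00275) and Nr1d2, which has the ROR core. Nr1d1 and Tef did not pass (differences 0.74 and 0.95, adjusted p = 0.122 and 0.0774). SHR replicate 3 was higher than SHRSP replicate 1 for Nr1d1, and SHR replicate 1 reached near the SHRSP arrays for Tef.

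**Figure D3:**
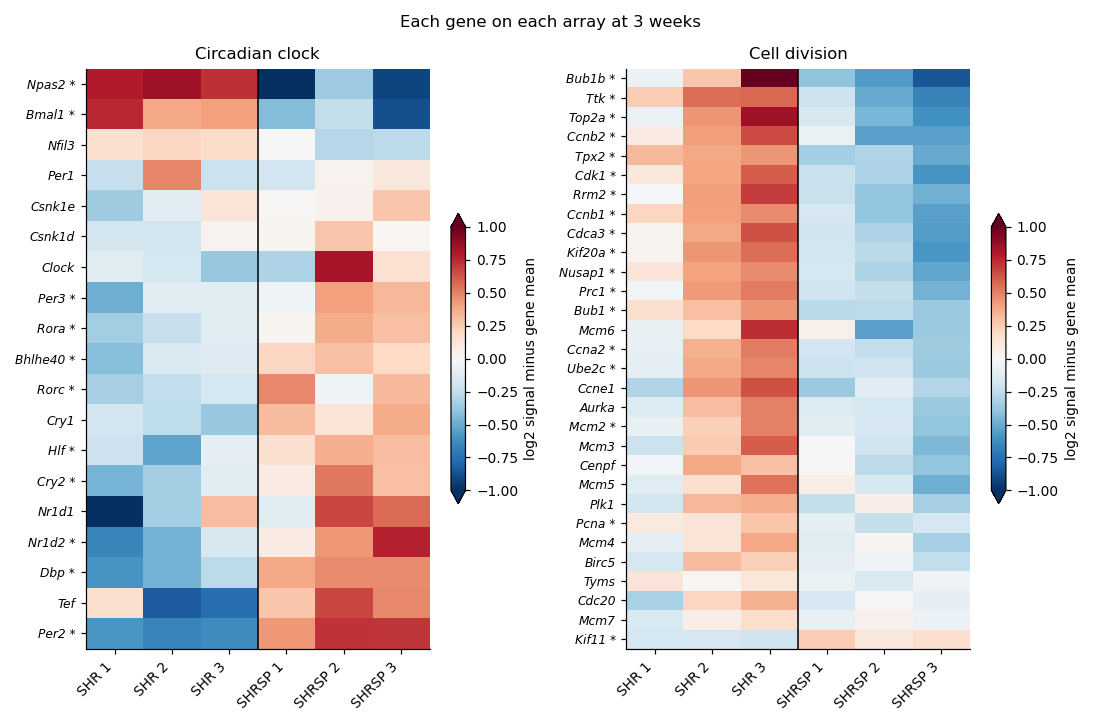
Colour gives each gene's log2 signal minus its mean over the 6 arrays at 3 weeks, for the tested clock genes and cell division genes, and a star marks genes with adjusted p under 0.05. Of the clock genes 9 with a star were higher and 2 were lower in SHRSP; of the cell division genes 17 were lower and 1 was higher.

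Genes of cell division were mostly lower. In the growing kidney they are expressed by the few cells in cycle, and in whole-organ RNA fewer cells of a type and less RNA per cell cannot be told apart. Cdk1, the kinase that starts mitosis, read 0.01, 0.29 and 0.50 in SHR and -0.33, -0.41 and -0.70 in SHRSP (difference -0.75, adjusted p = 0.00387). Top2a, which untangles DNA in mitosis, read -3.38, -2.87 and -2.46 in SHR and -3.47, -3.77 and -3.91 in SHRSP (difference -0.81, adjusted p = 0.0101), but its second probe did not pass (-0.40, adjusted p = 0.243). For both genes SHR replicate 1 was the lowest of its group and came closest to SHRSP. The spindle checkpoint kinase gene Ttk (difference -0.92, adjusted p = 0.00315), the B cyclin gene Ccnb2 (-0.77, adjusted p = 0.00693) and the spindle factor gene Tpx2 (-0.77, adjusted p = 0.0125) were lower as well. Bub1b had the largest difference, -1.22 (adjusted p = 0.0366), and rested on 1 bright array, SHR replicate 3 at -4.23 beside -5.90 and -5.57 in the others. Without that replicate Bub1b did not pass.

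Over the list, 30 of 33 genes were tested, 17 were lower and 1, the kinesin gene Kif11, was higher, by 0.36 (adjusted p = 0.0333), against 3.78% lower and 8.53% higher over all probes. In all 29 had differences below 0, and the median was -0.53. The median deviation of the members was -0.07, 0.34 and 0.50 on the SHR arrays and -0.17, -0.24 and -0.39 on the SHRSP arrays, so SHR replicate 1 stood next to the SHRSP group. The other scalings gave 22 lower members and 0 higher, where 1931 to 2041 of all 19937 probes were lower. Within the shared slide 15 were lower, and with slide as a block 11, with medians of -0.65. Over all probes 320 of 20194 and 253 of 19937 were lower under these settings. Without SHRSP replicate 3, the array scanned on another day, 9 were lower, and with scan day as a block 5. Here 351 of 20094 and 279 of 19937 probes were lower. At 6 weeks 0 of 31 members passed in either direction, beside 301 higher and 396 lower of all 19667 probes, and the list's median was -0.06. The change with age passed for 4 members, all upwards, among them Ccnb2 (adjusted p = 0.0415). Over all probes it passed upwards for 584 and downwards for 1119.

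Lists for vessels and transport were tested in the same way. Of 18 genes for VEGF, angiopoietins and their receptors 5 were higher and 0 lower, where 8.53% and 3.78% of all probes were, with a median of 0.19, and next to Vegfb these were Vegfa (0.48, with 1 of its 3 other probes past the test), Notch4 (0.57), Epas1 (0.75) and Flt1 (0.37). Only Vegfb passed within the shared slide, where 324 of all 20194 probes were higher and 320 lower. Of 35 genes for sodium, potassium and water transport 6 were higher and 1 was lower, beside 8.53% and 3.78% of all probes, with a median of 0.19. The epithelial sodium channel gene Scnn1a read -2.36, -1.99 and -1.91 in SHR and -1.66, -1.19 and -1.14 in SHRSP (difference 0.76, adjusted p = 0.00572), and Sgk1, an aldosterone-induced kinase that activates that channel, read 1.90, 1.84 and 1.92 in SHR and 1.36, 0.73 and 1.1 in SHRSP (difference -0.82, adjusted p = 0.0311). Other higher members were Scnn1g (0.33), Slc12a3 (0.43, overlapping, and 0.10 by a second probe that did not pass), Nedd4l (0.46) and Slc26a4 (0.36). Within the slide 0 transport genes passed in either direction.

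Stress and immune lists are read against the same shares, 8.53% higher and 3.78% lower. Of 43 glutathione and antioxidant genes 2 were higher (Cat and Gstt2) and 1 was lower (Prdx1), with a median of -0.02. Of 24 immediate early and stress genes 2 were higher and 2 lower, with a median of 0.05. Ccn2, a matricellular growth factor, read 1.05, 1.85 and 1.29 in SHR and 0.14, -0.01 and 0.56 in SHRSP (difference -1.17, adjusted p = 0.00338), and it kept its direction at 6 weeks with -1.52. The heat shock gene Hspa1b was higher by 0.96 (adjusted p = 0.0106), Klf4 by 0.35 (adjusted p = 0.0241), and the phosphatase gene Dusp1 was lower by a difference of -0.83 (adjusted p = 0.0172). Hspa1b, Klf4 and Dusp1 did not pass within the slide (adjusted p = 0.107, 0.168 and 0.0751), nor did Cat, Gstt2 and Prdx1 (adjusted p = 0.154, 0.273 and 0.119). Of 37 genes of MHC class I and antigen processing 0 were higher and 1 was lower (RT1-DMa, -0.35). Of 22 complement genes 1 was higher (C4a, 0.49) and 0 lower, and neither RT1-DMa nor C4a passed within the slide (adjusted p = 0.1 and 0.0542). Of 21 interferon-stimulated genes 0 passed in limma and the median was -0.17.

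**Figure D4:**
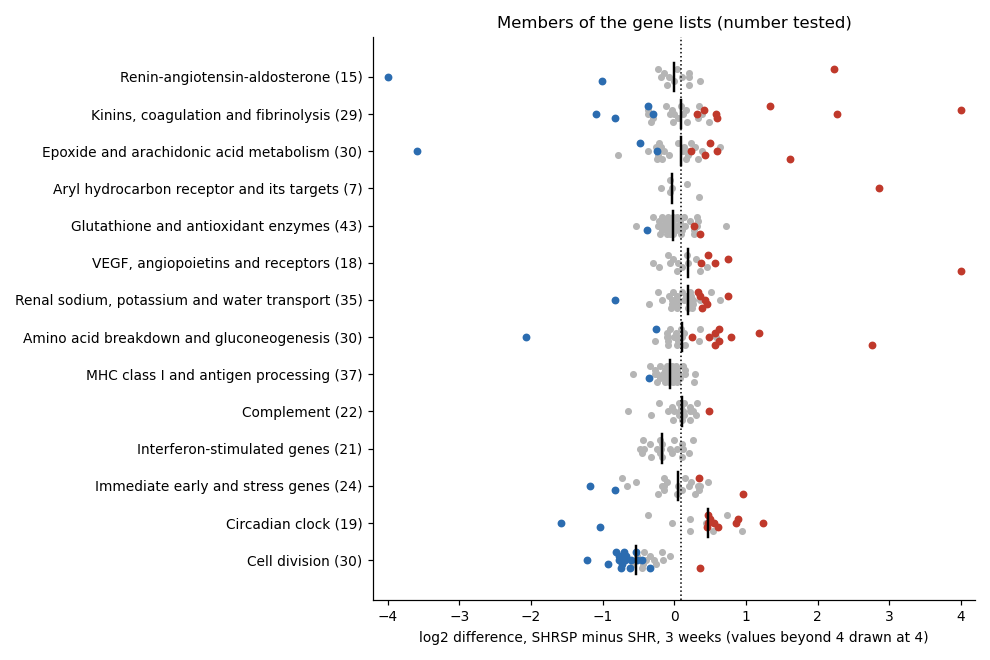
Each point is a tested member of a gene list, placed by its log2 difference SHRSP minus SHR at 3 weeks (values beyond 4 are drawn at 4); red and blue points passed the test upwards and downwards, grey points did not, and black bars are list medians. The clock list lies to the right of the dotted median of all probes, 0.10, and the cell division list to its left.

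Moderate differences, between 1.5-fold and 2-fold, made up most of the probes beyond 1.5-fold. By the smallest p, the upward ones were led by Cyb561a3, an iron reductase gene of lysosomes, with -2.02, -2.0 and -1.89 in SHR and -1.16, -1.1 and -1.27 in SHRSP (difference 0.79, adjusted p = 5.7e-06). It was followed by the lysophosphatidic acid receptor gene Lpar3 (0.99), Commd2 (0.77), the mitochondrial carrier gene Slc25a34 (0.72), the translation factor gene Eif1ad (0.95) and Spire1, an actin nucleator gene (0.65). Their adjusted p ran from 9.19e-06 to 4.19e-05. Lpar3 and Commd2 each had another probe that did not bear this out, with 0.24 (adjusted p = 0.299) and -0.37 (adjusted p = 0.003).

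The downward ones were led by Fuom, a fucose mutarotase gene, with 1.86, 1.80 and 1.97 in SHR and 1.11, 1.01 and 1.16 in SHRSP (difference -0.78, adjusted p = 4.66e-06). Col4a4, an alpha chain of the collagen IV network in the glomerular basement membrane, read 0.06, 0.20 and 0.13 in SHR and -0.61, -0.61 and -0.69 in SHRSP (difference -0.77, adjusted p = 9.79e-06). All SHRSP arrays lay below all SHR arrays for Fuom and Col4a4, and WKY kidneys averaged 1.19 and 0.14. The protease inhibitor gene Timp4 (-1.0), Ly6i (-0.74), Comtd1 (-0.71) and Tti1, a partner of mTOR (-0.70), followed, with adjusted p from 1.24e-05 to 2.55e-05. Of the 12 moderate genes, Col4a4 and Timp4 did not pass at 6 weeks, where their differences were -0.18 and 0.29, and the other 10 passed in the opposite direction.

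The probes past 2-fold were not spread evenly over the rn4 genome. Of 18757 tested probes with a position on a numbered chromosome or X, 194 were past 2-fold (1.03%), and 31 further calls had no such position. Chromosome 15 had the largest share, 16 of 552 probes (2.90%), 13 of them lower. It was followed by chromosome 9 with 13 of 696 (1.87%), chromosome 14 with 10 of 639 (1.56%) and chromosome 10 with 23 of 1498 (1.54%). The smallest shares were those of chromosome 17, with 2 of 572 (0.35%), chromosome 16, with 2 of 557 (0.359%), and chromosome 5, with 5 of 1204 (0.415%). Agtrap was 1 of the 5 on chromosome 5.

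**Figure D5:**
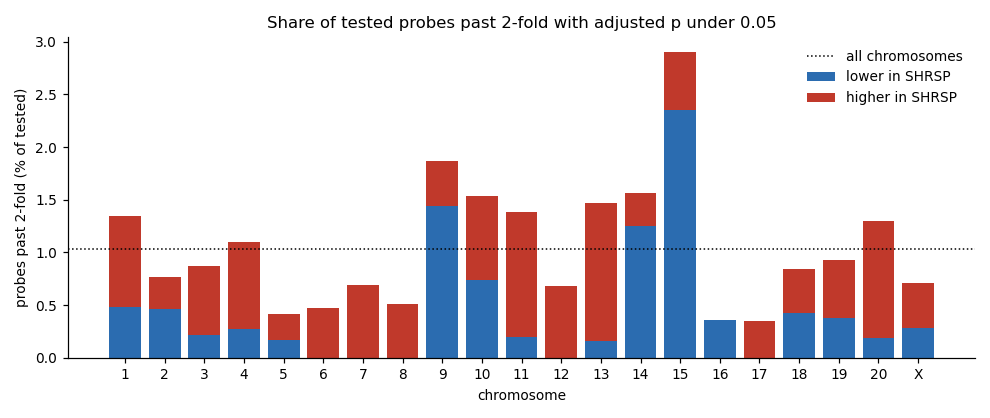
Bars give the percentage of tested probes on each chromosome that were past 2-fold with adjusted p under 0.05, stacked by direction, and the dotted line is the share over all chromosomes, 1.03%. Chromosome 15 reaches 2.90%, most of it lower in SHRSP.

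In windows of 10 Mb the calls were denser still. Of 273 windows with at least 10 tested probes, 95 held a call, and the 6 densest held 41 of the 194 calls (21.1%) on 477 tested probes. The densest was chromosome 9 from 0 to 10 Mb, with 9 of 73 probes (12.3%), all lower. Most of them carried no gene name, and a run of 6 probes lay between 5489437 and 5887261. The named one was Sult1c3, a sulfotransferase gene at 531902 to 531961, with -5.53, -5.33 and -5.07 in SHR and -6.50, -6.50 and -7.09 in SHRSP (difference -1.39, adjusted p = 6.47e-04). Only 1 SHRSP array was above background for Sult1c3. Chromosome 14 from 40 to 50 Mb held 7 of 62 (11.3%), all lower, without a gene name and within 49143924 to 49821926. All 7 of these crossed at 6 weeks.

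Chromosome 15 appeared with 2 windows. From 0 to 10 Mb it held 6 of 66 probes (9.09%), all lower, between 4985643 and 6104737, which are the Spetex-2 genes and unnamed probes among them. From 40 to 50 Mb it held 5 of 68 (7.35%), with Tdh at 42758744, the scavenger receptor gene Scara3 at 45344539 and Ephx2 at 45535737 lower and Clu at 45404688 higher. Clu encodes clusterin, a chaperone of secreted proteins that rises in injured tubules, and it was named after its values were seen. It read -0.91, -0.87 and -0.59 in SHR and 0.31, 0.36 and 0.19 in SHRSP (difference 1.08, adjusted p = 2.64e-05). Scara3 had a difference of -1.25 (adjusted p = 3.00e-04). Scara3, Clu and Ephx2 thus lay within 1 stretch and had both directions, and all 3 crossed at 6 weeks.

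Chromosome 10 from 90 to 100 Mb held 11 of 162 probes (6.79%), 5 higher and 6 lower. Prp2l1 at 92705889 and both Ace probes at 95380760 and 95381347 were lower, and Mettl2 at 94536396 and Apoh at 97732840 were higher. The window from 50 to 60 Mb on chromosome 4 held 3 of 46 (6.52%), all lower and without a gene name. Next came chromosome 11 from 80 to 90 Mb with 6 of 124 (4.84%), 5 of them higher, where Kng2l1 at 80172931, the Hrg probes at 80231484 and 80248652 and Fetub at 80277150 were neighbours. On chromosome 10, Haghl at 15051356, Rgs11 at 15477716 and Hba-a3 at 15559461 also lay close together, the outer ones lower and the middle one higher. Whether sequence differences between the strains under the probes contributed was not tested, since no strain sequence was at hand.

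Among the lists of cell markers, that of intercalated cells had 4 of 5 tested markers higher. These counts, and those of the other marker lists, stand against 8.53% higher and 3.78% lower over all probes. Their summed signal on a linear scale was 5.31, 5.02 and 5.36 in SHR and 6.61, 7.15 and 6.56 in SHRSP, without overlap, and their most abundant gene, the anion exchanger gene Slc4a1, read 0.71, 0.51 and 0.62 in SHR and 0.97, 1.61 and 1.01 in SHRSP (difference 0.58, adjusted p = 0.0351). With a 75th percentile over all probes 1 of the 5 passed, where 1497 of all 19937 probes were higher and 1931 lower. Within the shared slide 0 passed, where 324 of 20194 were higher and 320 lower. The proximal tubule list, with 2 of 7 higher, summed to 133, 144 and 153 in SHR and 155, 173 and 159 in SHRSP, also without overlap. The thick ascending limb list, with 0 of 4 past the test, summed to 120, 116 and 125 in SHR and 123, 157 and 129 in SHRSP. SHRSP replicate 2 was the highest array for both lists.

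For the distal convoluted tubule, led by Slc12a3, 2 of 3 markers were higher, with sums of 4.60, 5.40 and 5.33 in SHR and 5.76, 6.59 and 6.27 in SHRSP, again without overlap. For collecting duct principal cells 1 of 5 was higher, with sums of 46.5, 37.8 and 46.7 in SHR and 43.3, 54.0 and 35.1 in SHRSP. Within the shared slide 0 markers of the proximal tubule, distal tubule and collecting duct lists passed. Of the podocyte markers Wt1 was higher (0.48), and their sums, led by Podxl, were 4.40, 4.66 and 5.46 in SHR and 4.69, 7.40 and 5.54 in SHRSP. Wt1 did not pass within the slide (adjusted p = 0.166). Of the 6 endothelial markers, led by Kdr, Pecam1 was higher (0.57) but did not pass within the slide (adjusted p = 0.0985), with sums of 5.92, 6.86 and 7.09 in SHR and 6.97, 10.1 and 8.13 in SHRSP.

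Markers of other tissues were low or did not differ. The adrenal list, led by Th, had 0 of 6 past the test, with sums of 0.655, 0.934 and 0.945 in SHR and 0.830, 0.983 and 1.13 in SHRSP, and Cyp11b1, Cyp11b2, Star and Dbh were above background on 0 of the 6 arrays. The liver list, led by Apoc3, had 0 higher and 1 lower (Fgb), with sums of 3.35, 3.41 and 3.85 in SHR and 3.31, 3.37 and 3.48 in SHRSP, and Cps1 was not above background. Skeletal muscle markers, led by Mb, had 0 of 5 past the test, with sums of 0.773, 0.923 and 0.75 in SHR and 0.637, 0.888 and 0.936 in SHRSP, and Myh1, Myh2 and Atp2a1 were not above background. Ryr1, the calcium release channel of muscle, was above background on 1 SHR array alone and was not tested.

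Adipose and blood content varied between arrays within both groups. Adipose markers, led by Cidea, summed to 12.1, 8.90 and 4.91 in SHR and 6.50, 10.7 and 3.67 in SHRSP, with 0 of 7 past the test and Lep and Plin1 not above background. Red cell markers, led by Hba-a1, summed to 173, 117 and 128 in SHR and 120, 156 and 89.5 in SHRSP, and Epb42 was not above background. Replicate 3 was the lowest for adipose markers in each group. Immune markers, led by Lyz2, summed to 14.1, 12.8 and 13.7 in SHR and 15.3, 12.6 and 13.1 in SHRSP, with 0 higher and 2 lower of 11, namely the macrophage gene Adgre1 (-0.76) and the pan-leukocyte gene Ptprc (-0.30, adjusted p = 0.259 within the slide), while Cd3e, Cd8a, Cd79b and Ms4a1 were among those not above background. Of the 7 genes on the list for sex the array held only the Y-linked Sry, which was above background on all 6 arrays at -5.18, -4.59 and -4.62 in SHR and -5.02, -5.05 and -4.21 in SHRSP. The groups overlapped and the difference of 0.03 did not pass (adjusted p = 0.922).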

How the data were processed

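Kidney RNA was measured on 18 one-colour arrays. The authors deposited the output of Agilent Feature Extraction 10.5.1.1, whose processed signal is an intensity on a linear scale, not scaled between arrays. All 796572 values of the series matrix were compared with it, and 0 differed beyond a relative tolerance of 1e-06. Spots marked as not uniform or as outliers were left out, log2 signals of a probe's spots were averaged, and each array was scaled by the 75th percentile of its spots well above background; 8 probes that lacked any usable spot on 1 or more arrays were dropped.

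All 6 groups were fitted with limma 3.58.1 in R 4.3.3 (package data.table, version 1.17.8), with 13.9 degrees of freedom in all. Symbols came from RefSeq for 20792 probes (17481 by accession, 2602 by symbol, 709 by synonym), positions from the array files (rn4). Named were genes of the study's tables for this comparison with their brightest probe, the 12 higher and 12 lower genes with the largest fold, 6 and 6 bounded genes, 6 and 6 moderate genes with the smallest p, up to 4 per list, and up to 3 per window for 6 windows. Some genes under this rule and some list members are not reported here. Members, lists and rule were chosen with earlier results of these data known.

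Alternatives were other scalings, normexp with an offset of 50, filters, marked spots kept, low signals raised, the series matrix, array weights, a trended robust prior, the 6 arrays alone, replicate, slide or scan day as blocks, an unadjusted p under 0.01, genes for probes, 5 Mb windows, and leaving out each array. Values within the shared slide, and lists under settings other than quantile normalization and the filter for all 6 arrays, were added after seeing the data.

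Limits are the 3 arrays per group, slide and scan day partly tied to strain, sex and hour of collection not stated, labels that cross between the ages, and probes that strain variants could affect. None of these was resolved.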

Additional observations from a re-analysis of the deposited data

Results flagged for a closer look

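The difference between SHRSP and SHR was not the same at the 2 ages. The change of the difference from 3 to 6 weeks passed 2-fold and the test in limma for 518 probes. It passed at any size for 74 of the named probes, and 44 of these were past the test at both ages in opposite directions. The values that follow are the log2 difference at 6 weeks minus that at 3 weeks.

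The difference moved upwards in genes that were mostly lower in SHRSP at 3 weeks. The largest such changes were those of Hba-a3 (12.22), Agtrap (10.06), Haghl (8.03), Ephx2 (7.34), Prp2l1 (6.75), Micb (4.80), Ryr1 (4.69) and Tdh (4.25). Changes between these and 2 were those of Ace (3.69), MGC116197 (3.36), Pmfbp1 (3.24), Bpi (3.19), Spetex2f (3.13), Spetex2g (3.03), Asb9 (2.54), Tnfrsf9 (2.38), Scara3 (2.27), Ace (2.19) and Haus4 (2.17). The smaller ones were those of Fuom (1.54), Apcs (1.48), Tti1 (1.44), Sult1c3 (1.34), Comtd1 (1.32), Timp4 (1.28), Fgb (1.26), Ly6i (1.17), Dusp1 (1.07), Sytl3 (1.06), Ccnb2 (0.77) and Col4a4 (0.59). Ryr1 was not tested at 3 weeks, where it was above background on 1 of the 6 arrays.

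The difference moved downwards in genes that were mostly higher in SHRSP at 3 weeks. The largest were Vegfb (-16.23), Apoh (-11.90), Rxrg (-7.48), Zfp597 (-5.29), Serhl2 (-5.12), Zbtb16 (-4.76), Hrg (-4.68), Hrg (-4.66) and Rgs11 (-4.07). They were followed by Mettl2 (-4.0), Cxcl17 (-3.76), Agt (-3.46), Abcb10 (-3.42), Sds (-3.33), Pxmp4 (-3.26), F2 (-2.79), Hspa1b (-2.68), Angptl4 (-2.34) and Sfi1 (-2.08). A smaller drop was found for Eif1ad (-1.82), Cyb561a3 (-1.65), Cftr (-1.46), Lpar3 (-1.44), Spire1 (-1.20), Prodh (-1.17), Commd2 (-1.17), Slc25a34 (-1.13) and Wt1 (-1.04). The smallest were Pecam1 (-0.96), Cyp2j4 (-0.96), Slc4a1 (-0.84), Pck1 (-0.82), Per2 (-0.82), Scnn1a (-0.80), Atp6v1g3 (-0.71), C4a (-0.69), Nedd4l (-0.69), Slc12a3 (-0.63), Slc26a4 (-0.59), Klf4 (-0.56), Slc22a8 (-0.55), Atp6v1b1 (-0.52) and Gstt2 (-0.44). Where 1 group was not above background, as for Vegfb, Apoh, Hba-a3 and Haghl, the fitted change is not a bound on the real one.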

How the results depend on the processing

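Over 24 settings, the direction of the 100 named probes was reversed in 0 cases. Several settings keep the fitted difference and could not reverse it: the filters, the unadjusted p, the trended robust prior, and replicate as a block. The series matrix and the fit of only the arrays compared could not either. Slide as a block and the shared slide gave the same differences as each other. Many of the probes had also been picked for a large fold or small p, so the lack of reversals says little. In all, 2088 combinations of probe and setting kept their side of the test, 310 lost it and 2 gained it. The loss fell mostly on small differences, on differences with a wide spread such as those of Zbtb16, Ptprq and Cftr, and on genes without signal in 1 group. The cause of the changes below was not tested.

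The 2453 probes past the test at any fold became 8495 with array weights, 3704 with quantile normalization, 818 with scan day and 477 with slide as a block, 644 within the shared slide and 131 with only the 6 arrays. Leaving out 1 array gave 998 (without SHRSP replicate 2) to 7083 (without SHRSP replicate 1). The 225 probes past 2-fold became 410 with array weights, 142 when all 6 arrays had to be above background, 87 with normexp, 125 with only the 6 arrays and 118 as genes in place of probes, and 185 to 514 without 1 array. The 55 past 4-fold became 17 with all 6 arrays above background and 18 with normexp, and 57 to 70 without 1 array. The 518 changes with age became 921 with array weights and 266 with normexp, and 467 to 816 without 1 array, the last without SHRSP replicate 1. The fit of only the 6 arrays gives no such value.

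Of the named probes 98 passed, and 39 did with only the 6 arrays, 62 with slide as a block and 63 within the slide. List members past the test numbered 99, and 211 with array weights, 43 with scan day, 37 with slide, 43 within the slide, 15 with only the 6 arrays, and 53 (without SHRSP replicate 3) to 166 (without SHRSP replicate 1). The densest window changed with the setting. It was chromosome 9 from 0 to 10 Mb past 2-fold (12.3%), chromosome 13 from 60 to 70 Mb at any fold (31.7%) and chromosome 15 from 5 to 10 Mb with 5 Mb windows (21.7%). Replicate numbers as a block left 2544 probes at any fold and 226 past 2-fold, and the deviations of SHR and SHRSP arrays of the same replicate number had r of 0.00174 to 0.0798.

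Signal over background limits the faint genes. With 3 arrays a group, and slide and day partly tied to the strain, small differences are the least certain.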
